A study of Mus musculus with 6 samples.

Results

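Genes for protein folding in the endoplasmic reticulum (ER) were followed in C2C12 myotubes given RANKL. The 10 genes (Hspa5, Hsp90b1, Calr, Canx, Pdia3, Pdia4, Pdia6, Herpud1, Xbp1 and Dnajb9) were taken by name, and all 10 stand among the 12625 genes of the count table. C2C12 is a mouse myoblast line whose cells fuse into myotubes. Myotubes at day 5 of differentiation were exposed to recombinant mouse RANKL, the ligand of the receptor RANK, at 100 ng/ml for 72 h (3 libraries), and the control cells received vehicle (3 libraries). No genetic change is named in the labels for either group, and whether the replicates were grown as separate cultures is not stated, so p-values cover the spread between these libraries alone, which may be technical. Library totals ran from 32732604 to 39677999 counts.

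Secreted and membrane proteins are folded in the lumen of the ER, which in muscle is continuous with the calcium store of the sarcoplasmic reticulum. When unfolded protein builds up there, the membrane sensors IRE1, PERK and ATF6 start the unfolded-protein response, in which ATF6 and the spliced form of XBP1 raise transcription of chaperone genes, while PERK slows translation and favours translation of ATF4. The best known DNA elements of this response are the ER stress response element, ERSE, and its variant ERSE-II, which carry the same CCAAT and CCACG blocks at different spacing and orientation. Transcript levels of BiP (Hspa5), Herpud1 and Dnajb9 are widely used as readouts of the response.

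Some of these genes share an element in their promoters. RefSeq windows (build GRCm38.p6) from 250 bases before to 50 bases after the start site were found for all 10 genes and searched on both strands. ERSE was searched as CCAAT, any 9 bases and CCACG, and ERSE-II as ATTGG, any 1 base and CCACG. Both patterns end in the same block, so a single CCACG could serve in either, but no gene of the 10 held both. ERSE matched in 5 of the 10 genes. Of the 9625 genes of the count table that had a window it matched in 17, or 0.177%, and these include the 5 (0.119% of all 32851 windows). ERSE-II matched in Herpud1 alone among the 10, and in 0.0831% of those 9625 genes (0.0365% of all windows). Pdia3, Pdia4, Xbp1 and Dnajb9 held neither, which says only that these exact letters are not in the window. Both elements were searched as known ones of this response, so matches in its chaperone genes are no separate result. The matches are printed 5′ to 3′ on the strand of the gene with up to 15 bases on each side, because they are the sequence feature that several of the members have in common and that Herpud1 carries in its variant form. Capitals mark the fixed letters of the element, and a match read from the other strand appears as CGTGG followed by ATTGG.
Hspa5: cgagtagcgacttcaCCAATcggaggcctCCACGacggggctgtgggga
Hsp90b1 (distal): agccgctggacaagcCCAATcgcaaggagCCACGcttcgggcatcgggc
Hsp90b1 (proximal): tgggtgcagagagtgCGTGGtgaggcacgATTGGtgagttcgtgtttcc
Calr: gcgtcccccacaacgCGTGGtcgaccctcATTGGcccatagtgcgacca
Canx: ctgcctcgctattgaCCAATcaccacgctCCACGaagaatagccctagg
Pdia6: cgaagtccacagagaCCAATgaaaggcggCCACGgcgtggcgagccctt
Herpud1: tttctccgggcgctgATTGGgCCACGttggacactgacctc

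The printed stretches lie at chr2:34772010-34772058 (plus strand) for Hspa5, chr10:86705623-86705671 and chr10:86705518-86705566 (minus) for Hsp90b1, and chr8:84847060-84847108 (minus) for Calr. Those of Canx, Pdia6 and Herpud1 lie at chr11:50325785-50325833 (minus), chr12:17266476-17266524 (plus) and chr8:94386362-94386402 (plus). The element of Hspa5 ended 47 bases before the start site and that of Herpud1 42 bases before it. The other elements lay farther upstream, up to 212 bases before the start in Hsp90b1.

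**Figure D1:**
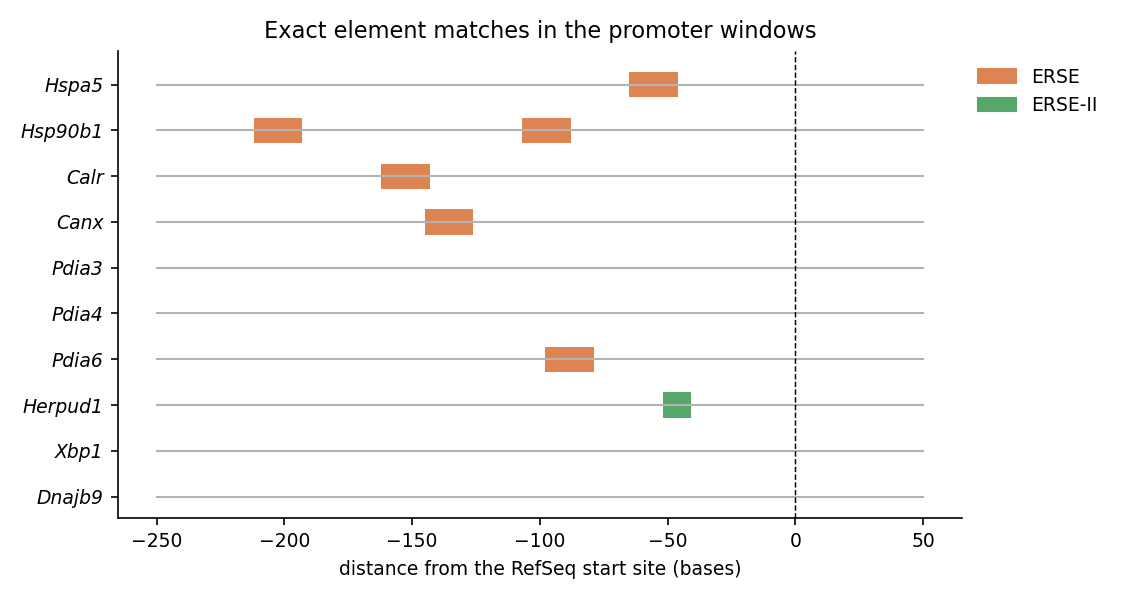
Exact matches of ERSE (orange) and ERSE-II (green) in the promoter window of each gene, drawn by distance from the RefSeq start site in bases (dashed line). Of the 10 genes, 5 hold ERSE, Herpud1 holds ERSE-II, and Pdia3, Pdia4, Xbp1 and Dnajb9 hold neither.

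Under RANKL, 1 of the 10 genes fell, Herpud1, and none rose. By edgeR's quasi-likelihood test with Benjamini-Hochberg adjustment over all genes, 7.5% of all genes tested were lower and 5.35% higher, 12.9% in either direction, so a count of 1 in 10 is near the background share. Of the 9 genes that did not pass, the 95% intervals of the change all lay between -12.4% and 10.5%. The same test gave 3 of the 10 genes an unadjusted p under 0.05 (Herpud1 and Dnajb9 lower, Hsp90b1 higher), beside 27.2% of all genes, which is about the same share. Each of the tools DESeq2, limma-voom and limma-trend called Herpud1 lower and 0 of the 10 higher. The median log2 fold change of the 10 genes was 0.01, and 0.005 over all genes. Summed over the 10 genes, the libraries held 3393 to 3476 counts per 1000000 (CPM, scaled by TMM factors) under vehicle and 3411 to 3461 under RANKL, so the summed ranges overlapped.

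Herpud1 encodes HERP, an ER membrane protein that takes part in ER-associated degradation, the removal of misfolded proteins to the proteasome. Its level was 215, 211 and 211 CPM in vehicle replicates 1 to 3 and 181, 184 and 181 CPM in RANKL replicates 1 to 3. All RANKL libraries lay below all vehicle libraries, and the gap between the groups was many times the spread within either. The level went from 212 ± 2.09 to 182 ± 1.60 CPM (mean ± SD over 3 libraries per group), a log2 fold change of -0.22 ± 0.03 (SE; adjusted p = 0.000225 by edgeR), or a change of -14.4% (95% interval -18.1% to -10.6%). The gene was called in all 17 alternative settings, with log2 fold changes from -0.24 to -0.19 and adjusted p from 2.36e-08 to 0.00299. Of these, the setting without a filter on low counts repeats the main fit, since the filter removed 0 genes. Herpud1 lies on chromosome 8 from 94386438 to 94395377 (mm10) and shares no exon with another gene.

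The central chaperones were level or nearly so. Hspa5, which encodes BiP, the HSP70 of the ER and the main binder of unfolded chains, had 578, 580.6 and 586 CPM under vehicle and 590.6, 584 and 589 CPM under RANKL. The groups overlapped, since RANKL replicate 2 lay below vehicle replicate 3. Its log2 fold change was 0.02 ± 0.03 (adjusted p = 0.778 by edgeR), and the 95% interval of its change ran from -3.11% to 5.53%.

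Hsp90b1 encodes GRP94, the HSP90 of the ER, whose clients include integrins and Toll-like receptors. It had 541, 529 and 540 CPM under vehicle and 568, 560 and 574 CPM under RANKL. Every RANKL library was above every vehicle library, but the difference did not pass the test: log2 fold change 0.08 ± 0.03, adjusted p = 0.0903 by edgeR, 95% interval of the change 1.20% to 10.5%. With total count scaling it passed (log2 fold change 0.11, adjusted p = 0.0236), whereas with the trend on GC content removed it was 0.03 (adjusted p = 0.552), so both its size and its call rest on such choices. Exons of Hsp90b1 overlap those of Gm15344 and Gm25745 on the same strand and of 1810014B01Rik on the other, and how such reads were assigned is not stated.

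Dnajb9 encodes ERdj4, a co-chaperone that hands clients to BiP and to degradation. It had 50.3, 52.1 and 49.3 CPM under vehicle and 45.8, 46.2 and 49.7 CPM under RANKL. RANKL replicates 1 and 2 lay below all vehicle libraries, and RANKL replicate 3 lay inside their range. The log2 fold change of -0.10 ± 0.04 did not pass (adjusted p = 0.158 by edgeR; 95% interval of the change -12.4% to -0.391%), but it was -0.15 with an adjusted p of 0.0363 once the trend on GC content was removed. Its lowest count was 1573, the lowest of any of the 10 genes, where counting error alone gives 2.52%. Exons of Dnajb9 overlap Mir5627 on the opposite strand.

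Calnexin (Canx) and calreticulin (Calr) are the lectin chaperones that hold newly made glycoproteins until their sugars are trimmed. Calr had 625, 644 and 660 CPM under vehicle and 616, 634 and 607 under RANKL, with a log2 fold change of -0.05 ± 0.03 (adjusted p = 0.316 by edgeR). Canx had 616, 650 and 638 CPM under vehicle and 609, 641 and 664 under RANKL, with 0.01 ± 0.04 (adjusted p = 0.910 by edgeR). Both groups overlapped in both genes, and the 95% intervals of the change ran from -8.19% to 1.12% for Calr and from -4.70% to 6.17% for Canx. The SD of Canx was 17.0 CPM under vehicle and 27.6 under RANKL.

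The protein disulfide isomerases form and rearrange disulfide bonds in the ER lumen. Pdia3 (ERp57), the isomerase that works with the lectin chaperones, had 333, 346 and 343 CPM under vehicle and 345, 351 and 349 under RANKL. Pdia6 had 204, 210.5 and 209 CPM under vehicle and 209.7, 212 and 210.5 under RANKL. Pdia4 had 93.1, 95.2 and 92.4 CPM under vehicle and 96.6, 91.8 and 94.4 under RANKL. The groups overlapped in all 3. Their log2 fold changes were 0.03 ± 0.03, 0.02 ± 0.03 and 0.01 ± 0.03, with adjusted p of 0.534, 0.721 and 0.871 by edgeR, and their intervals lay between -4.14% and 6.95%. Exons of Pdia3 overlap those of Catsper2 and exons of Pdia6 those of Atp6v1c2, on the opposite strand in each case. Pdia4 overlaps Mir704 on the same strand. Whether counting used strand is not stated.

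Xbp1 encodes the transcription factor whose mRNA is spliced by IRE1. It had 139, 147 and 148 CPM under vehicle and 149, 139.5 and 143 CPM under RANKL, with the groups interleaved. The log2 fold change was -0.01 ± 0.04 (adjusted p = 0.905 by edgeR; 95% interval of the change -5.85% to 4.89%). Counts per gene do not separate the spliced from the unspliced mRNA, so they say nothing of its splicing.

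**Figure D2:**
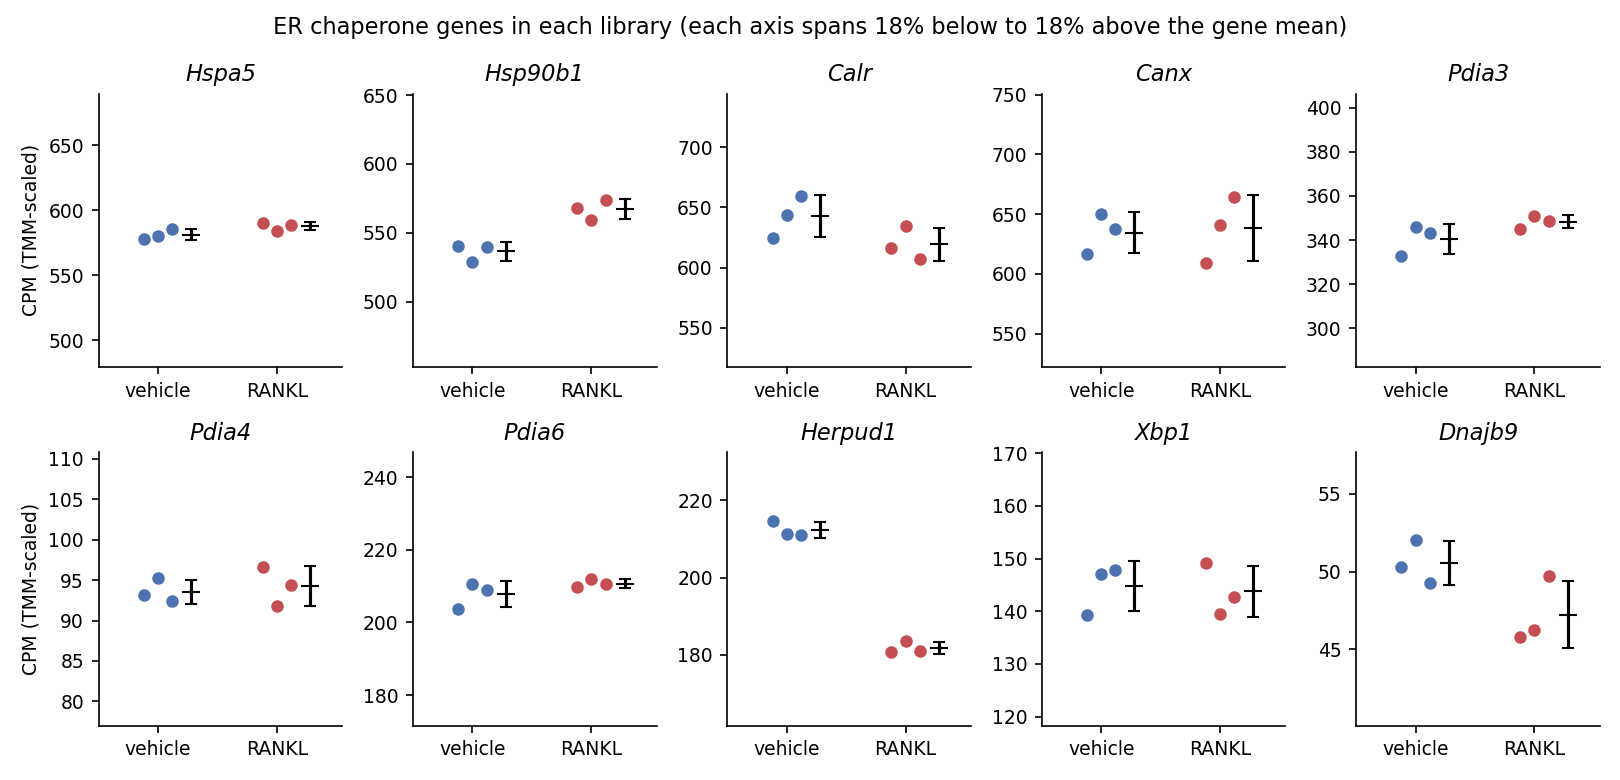
CPM of each gene in each library (blue, vehicle; red, RANKL; replicates 1 to 3 from left to right), with mean ± SD beside them (n = 3). Each vertical axis covers the same relative range around the mean of the gene and does not start at 0; Herpud1 and Hsp90b1 are the genes whose groups do not overlap.

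Over the 10 genes, the groups did not overlap in 1 gene with RANKL higher (Hsp90b1) and 1 with RANKL lower (Herpud1), beside 14.9% and 16.6% of all genes (31.5% in either direction). The median absolute log2 fold change of the 10 genes was 0.03, against 0.06 over the 4470 genes at least as abundant as Dnajb9. Of those 4470 genes, 5.37% were higher and 14.5% lower. They share only a lower bound with the 10 genes and were not matched to them in level. Few calls were also seen in other lists of folding genes, given below. This is a description, with no test of the set.

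**Figure D3:**
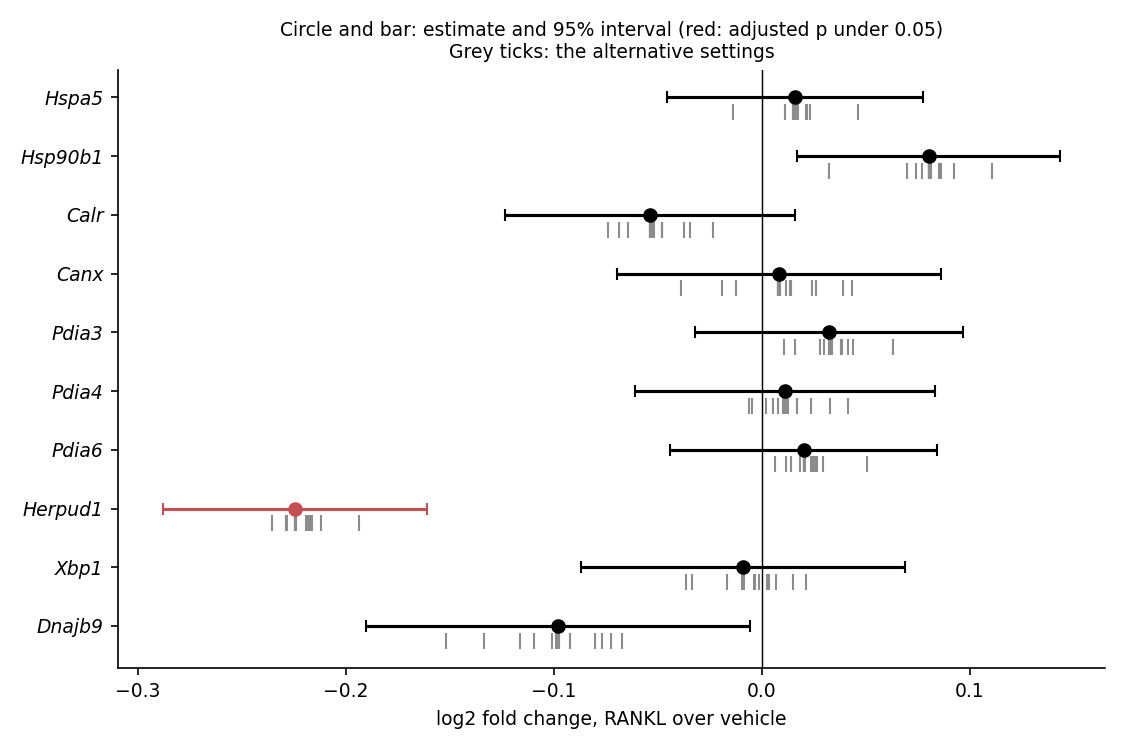
Log2 fold change of each gene, RANKL over vehicle, with its 95% interval from edgeR (circle and bar; red, adjusted p under 0.05) and its value in each of the 17 alternative settings (grey ticks below). Herpud1 is the gene whose interval and alternatives all lie far below 0; the interval of Hsp90b1 lies above 0 and that of Dnajb9 below it, without passing the adjusted test.

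Ratios to Hspa5 within each library do not depend on scaling between libraries (this comparison was chosen after the values were seen). Herpud1 had 0.372, 0.364 and 0.360 counts per count of Hspa5 in vehicle replicates 1 to 3, and 0.306, 0.314 and 0.308 in RANKL replicates 1 to 3. The mean ratio under RANKL was 0.847 times that under vehicle, and the groups did not overlap. Hsp90b1 per Hspa5 was 0.936, 0.911 and 0.922 under vehicle and 0.962, 0.958 and 0.975 under RANKL, also without overlap. In the other 7 of the 9 ratios the groups overlapped. An exact two-sided permutation test of 3 against 3 libraries cannot give a p below 0.1, so no p is given.

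The levels of the 10 genes can be set beside each other on the authors' deposited scale. It was read from its values as log2 RPKM, a level per length of gene. Gene lengths were not set beside it, so the order of the genes rests on that reading. Under vehicle, calreticulin was highest at 8.37 ± 0.04 log2 RPKM (mean ± SD, n = 3), above Hspa5 at 7.80 ± 0.01 and Hsp90b1 at 7.60 ± 0.02. Canx (7.21), Pdia3 (7.01), Herpud1 (6.83), Pdia6 (6.61), Xbp1 (6.01), Pdia4 (5.24) and Dnajb9 (4.76) followed. No 2 neighbours in this order had overlapping ranges across the vehicle libraries. Dnajb9, the lowest, stood at the 77.35th percentile of all genes by level, and Calr at the 99.01th. Under RANKL the order changed in 1 place: Herpud1 had 6.59, 6.62 and 6.60 log2 RPKM in replicates 1 to 3, below Pdia6 at 6.62, 6.64 and 6.63, with no overlap between these genes.

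**Figure D4:**
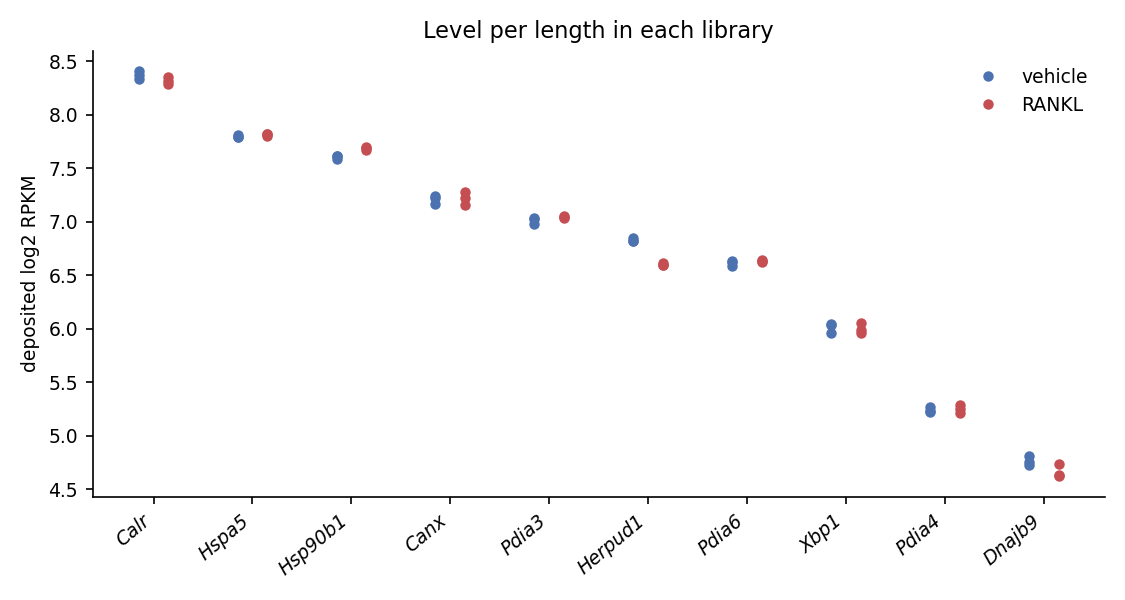
The authors' deposited log2 RPKM of each gene in each library (blue, vehicle; red, RANKL), in order of the vehicle mean. The order holds in every vehicle library, and in the RANKL libraries Herpud1 lies below Pdia6.

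The 5 genes whose profile over the 6 libraries was most like that of Hspa5, among the 8993 genes that averaged 10 CPM or more, were U2af2, Ercc5, Copa, Fxr1 and Ktn1. Likeness was the root mean square difference of log2 CPM centred on the mean of each gene, which ran from 0.00671 for U2af2 to 0.00948 for Ktn1. Hspa5 was nearly flat, so genes chosen for likeness to it are nearly flat by construction. Their log2 fold changes ran from 0.004 for Copa to 0.02 for Ercc5, and that none passed the test is no separate result.

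Of 41 measured other ER folding genes 1 rose and 0 fell, 2.44% and 0% beside 5.35% and 7.5% of all genes. Their median log2 fold change was 0.03. Pdia5, another disulfide isomerase, rose from 11.0 ± 0.216 to 13.0 ± 0.515 CPM, by 0.24 ± 0.07 on the log2 scale (adjusted p = 0.0300 by edgeR). It did not pass in DESeq2 (adjusted p = 0.0781), without any one vehicle replicate (adjusted p from 0.0647 to 0.104) or without RANKL replicate 2 (0.112). The count of higher genes was 3 with total count scaling and without RANKL replicate 1, and 2 without RANKL replicate 3; with the GC trend removed 2 were higher and 1 lower. An unadjusted p under 0.05 was given to 7 of the 41, a smaller share than the 27.2% of all genes. Genes often used as readouts of the unfolded-protein response (chosen after their values were seen) did not pass: Hyou1, the HSP110-like partner of BiP, stood at -0.10 ± 0.03 (adjusted p = 0.0579 by edgeR), Dnajc3, a co-chaperone of BiP, at -0.04 ± 0.03 and P4hb, the classical disulfide isomerase, at 0.05 ± 0.03 on the log2 scale. In each of these genes the groups did not overlap, with Hyou1 and Dnajc3 lower and P4hb higher under RANKL, beside 31.5% of all genes. DESeq2 called 0 of the 41 higher, limma-voom and limma-trend 1 each, and all 3 tools called 0 lower.

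Of 27 measured genes of ER-associated degradation, the pathway of Herpud1, 1 fell and 0 rose in edgeR, 3.7% and 0% beside 7.5% and 5.35% of all genes. In this list 6 had an unadjusted p under 0.05 (27.2% of all genes), and the median log2 fold change was -0.02. The gene that fell was Syvn1, which encodes HRD1, the ubiquitin ligase that HERP binds. It had 83.9, 77.6 and 77.6 CPM under vehicle and 70.5, 74.1 and 70.8 under RANKL, without overlap. It fell by 0.15 ± 0.04 on the log2 scale (adjusted p = 0.0216 by edgeR). The call ended without vehicle replicate 1 (adjusted p = 0.108), without RANKL replicate 3 (0.0528), with total count scaling (0.0530) and with the GC trend removed (0.0817). Sel1l, which holds HRD1 in its complex (chosen after its values were seen), went from 213 ± 7.95 to 197 ± 2.03 CPM and lay just outside the threshold (-0.11 ± 0.03 on the log2 scale, adjusted p = 0.0501 by edgeR). It passed with limma-voom (0.0474), with the replicate block (0.0425) and in 3 other settings. Without RANKL replicate 1 the list had 3 lower genes, and without vehicle replicate 1 or RANKL replicate 3 it had 0. Among the alternative tools, DESeq2 and limma-trend called 1 gene lower and limma-voom 2, and none of them called a gene higher.

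Sensors and factors of the response had 1 of 16 measured genes higher and 2 lower, 6.25% and 12.5% beside 5.35% and 7.5% of all genes. Wfs1, which encodes wolframin, an ER membrane protein tied to calcium balance and ER stress, had 312, 304 and 302 CPM under vehicle and 238, 243 and 237 CPM under RANKL. The groups were far apart, and its log2 fold change of -0.35 ± 0.03 (adjusted p = 3.78e-06 by edgeR) was larger than that of Herpud1; it passed in all 17 alternative settings. Atf6b, a relative of ATF6, fell by 0.15 ± 0.04 on the log2 scale, from 55.4 ± 0.653 to 49.9 ± 1.25 CPM (adjusted p = 0.0172 by edgeR). That call ended without RANKL replicate 1 (0.0507), without vehicle replicate 2 (0.0567) or 3 (0.0620), with total count scaling (0.0587) and with the GC trend removed (log2 fold change -0.10, adjusted p = 0.122). Traf2, an adaptor that IRE1 and TNF-family receptors both bind, rose from 37.1 ± 0.622 to 43.8 ± 1.42 CPM. The 3 sensors themselves (chosen after their values were seen) did not pass. Ern1, which encodes IRE1, stood at -0.08 ± 0.05, Eif2ak3, which encodes PERK, at 0.06 ± 0.05, and Atf6 at -0.07 ± 0.03 on the log2 scale, with adjusted p of 0.274, 0.394 and 0.145 by edgeR. With total count scaling 4 genes of the list were higher, and 2 with a mean of at least 5 CPM required or with the length or GC trend removed.

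Of 19 measured targets of the PERK and ATF4 branch 8 fell and 2 rose, 42.1% and 10.5%, beside 7.5% and 5.35% of all genes; the difference was not tested. The list had a median log2 fold change of -0.11. Psat1 and Phgdh, enzymes of serine synthesis, fell from 233 ± 7.28 to 200 ± 6.13 CPM and from 108 ± 3.89 to 86.6 ± 7.23 CPM. On the log2 scale they changed by -0.23 ± 0.03 and -0.33 ± 0.05, with adjusted p of 0.000775 and 0.000824 by edgeR. Cebpb, a factor that inflammatory signals also induce, rose by 0.40 ± 0.05 on the log2 scale, from 39.6 ± 1.38 to 52.2 ± 3.93 CPM (adjusted p = 0.000225 by edgeR).

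Among stress genes of that branch chosen after their values were seen, Chac1, which breaks down glutathione, fell from 16.2 ± 1.52 to 12.5 ± 0.593 CPM (adjusted p = 0.00520 by edgeR). Atf4 itself fell by 0.10 ± 0.03 on the log2 scale, from 284 ± 1.35 to 264 ± 5.61 CPM (adjusted p = 0.0403 by edgeR), a call that ended without any one of the 6 libraries (adjusted p from 0.0659 to 0.116), with the replicate block (0.0502), with total count scaling (0.150) or upper quartile scaling (0.0504), in limma-trend (0.0501) and with the GC trend removed (0.157). Trib3 passed at -0.36 ± 0.11 (adjusted p = 0.0399 by edgeR), but not when any library other than RANKL replicate 1 was left out (0.0969 to 0.137), in DESeq2 (0.0655), with total count scaling (0.0561) or with the GC trend removed (0.0761). Ddit3, which encodes CHOP, a factor tied to cell death under ER stress, had 12.7 ± 0.218 CPM under vehicle and 13.0 ± 0.941 under RANKL and did not pass (0.03 ± 0.07 on the log2 scale, adjusted p = 0.841 by edgeR). Without any one library the list had 6 to 8 lower genes and 1 higher, and DESeq2, limma-trend and the removal of the GC trend also gave 1 higher.

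Genes of translocation into the ER had 0 of 25 measured members called by edgeR, 4 of them at an unadjusted p under 0.05 (27.2% of all genes), and 0 called by DESeq2, limma-voom or limma-trend. Ssr4, a subunit of the translocon-associated complex, came closest, at 0.12 ± 0.04 on the log2 scale (adjusted p = 0.0742 by edgeR). It passed with total count scaling (0.0319), where 2 genes of the list were higher, and without RANKL replicate 3 (0.0358). Chaperones of other compartments also had few calls. Groups without overlap were more frequent than calls. RANKL lay higher without overlap in 11 of 36 cytosolic chaperones, 7 of 25 translocation genes and 4 of 14 mitochondrial genes, beside 14.9% of all genes. It lay lower without overlap in 2, 1 and 2 of them, beside 16.6% of all genes. These differences were not tested. Of 36 cytosolic chaperones 1 fell and 0 rose, 2.78% and 0% beside 7.5% and 5.35% of all genes. In this list 8 had an unadjusted p under 0.05 (27.2% of all genes), and the median log2 fold change was 0.03. Each of the other 3 tools called 0 higher and 1 lower. The one that fell was Bag3, a co-chaperone that helps clear damaged muscle filament proteins, from 157 ± 7.30 to 136 ± 3.60 CPM. With total count scaling 6 of these genes were higher. Among 14 mitochondrial chaperones and proteases all 4 tools called 0, with 4 at an unadjusted p under 0.05 in edgeR, about the 27.2% of all genes. Hspd1, the mitochondrial HSP60, stood at 0.10 ± 0.03 (adjusted p = 0.0659 by edgeR), and 3 genes of that list were higher with total count scaling and 1 without RANKL replicate 3 or with a mean of at least 5 CPM required.

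The calcium store of the same membrane system had 7 of 17 measured genes lower and 1 higher, 41.2% and 5.88% beside 7.5% and 5.35% of all genes, with a median log2 fold change of -0.12. Srl (sarcalumenin), a luminal calcium-binding protein, went from 981 ± 17.8 to 825 ± 44.7 CPM. Itpr3, a calcium release channel of the ER, fell by 0.17 ± 0.04 on the log2 scale, from 215 ± 10.3 to 191 ± 1.01 CPM (adjusted p = 0.00609 by edgeR). Ryr1, the release channel of the sarcoplasmic reticulum, fell by 0.24 ± 0.05 on the log2 scale, and by 0.16 with the trend on gene length removed. Without vehicle replicate 2 or RANKL replicate 2 the list had 3 lower genes. The higher call fell to 0 when RANKL replicate 1 or any of the vehicle replicates was left out, in limma-trend and with the GC trend removed, and rose to 2 with the replicate block or without RANKL replicate 3.

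**Figure D5:**
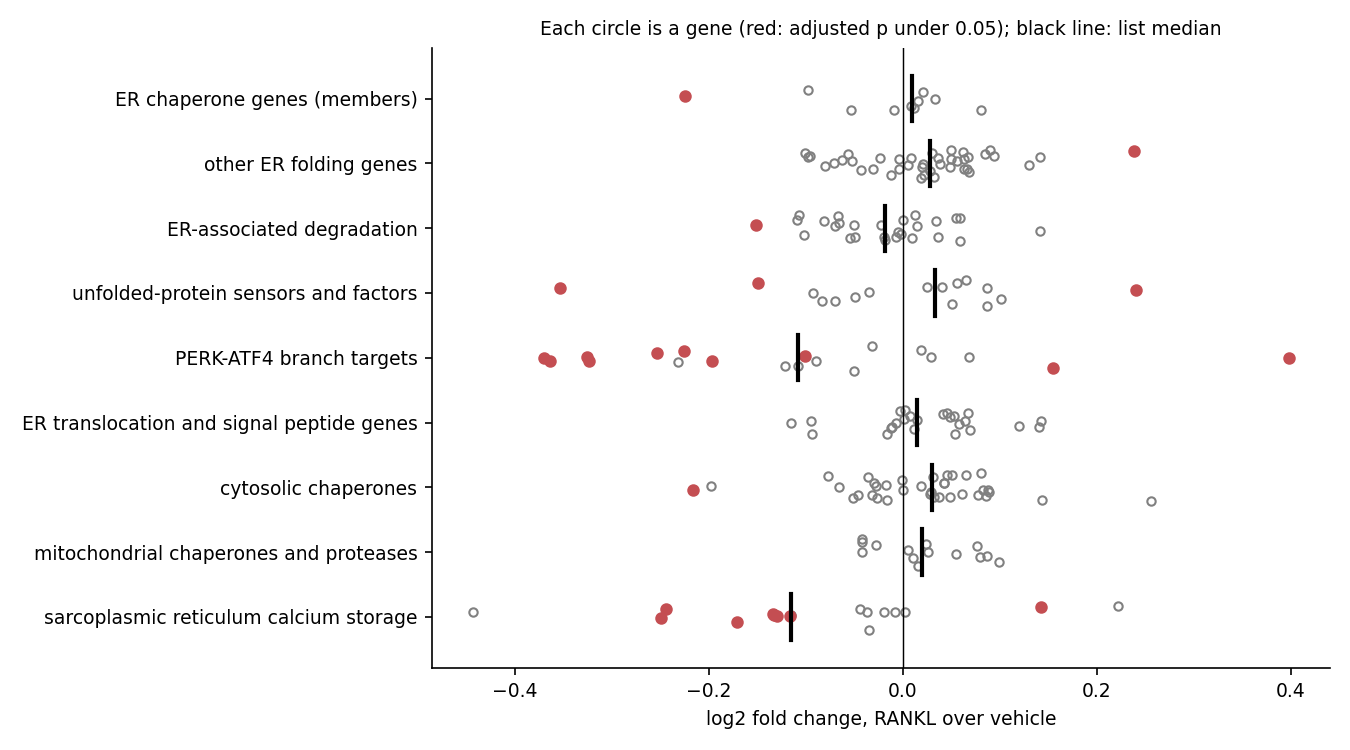
Log2 fold change, RANKL over vehicle, of each measured gene in the ER, chaperone and calcium store lists (circles; red, adjusted p under 0.05 by edgeR), with the median of each list (black line). The medians of the folding lists lie between -0.02 and 0.03, and those of the PERK and ATF4 targets and of the calcium store near -0.11 and -0.12.

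Cell state markers moved with the groups. Of 17 measured myotube markers 8 fell, among them Acta1, Myh2 and Myh8, or 47.1% beside 7.5% of all genes. The 17 had a summed level of 40201 to 43518 CPM under vehicle and 37857 to 39210 under RANKL. The cells thus carried the muscle genes their label implies in both groups. Without vehicle replicate 2 the number that fell was 5, and without any one other library it was 6 to 10. Of 12 markers of cycling cells 11 rose, among them Mki67, Cdk1 and Ccna2, or 91.7% beside 5.35% of all genes. The 12 had sums of 128 to 137 CPM under vehicle and 174 to 207 CPM under RANKL. The number that rose was 6 without vehicle replicate 2, and 7 without RANKL replicate 1 or with a mean of at least 5 CPM required. That last setting tests only 10160 genes, so its count can fall where a low marker is not tested. Of 10 measured myoblast and reserve cell markers 2 rose and 3 fell, 20% and 30% beside 5.35% and 7.5% of all genes. The 10 had sums of 506 to 533 CPM under vehicle and 578 to 586 CPM under RANKL. Vcam1, which inflammatory signals also induce, rose 2.62-fold, from 52.0 ± 2.94 to 136 ± 14.2 CPM. That is more than the rise of the sum, which thus rests on this gene and is no shift of the list as a whole. Spry1 and Notch1 fell. Of 13 macrophage and osteoclast markers 4 were measured, with sums of 5.30 to 5.93 and 6.44 to 7.32 CPM and 0 called by all 4 tools; 1, Cd14, had an unadjusted p under 0.05 in edgeR (adjusted p = 0.105). The part of these shifts in the fall of Herpud1 was not tested, and in bulk RNA fewer cells of a type and less RNA per cell cannot be told apart.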

How the data were processed

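Raw counts per gene, as the authors deposited them, were taken for 6 libraries; 4708 lines without a gene or value were left out. The submitters' processing notes name STAR, FastQC, edgeR and mm10; counter, annotation and strand setting are not stated there or in the labels. Low genes had been removed before deposit: in every gene the third-highest library had at least 0.504 CPM. A further deposited table holds log2 values. They differ from log2 CPM of the counts by a constant per gene and a factor per library, within 0.00477 over 5911 genes of high count. The constant was read as gene length, which makes the values log2 RPKM, but it was not checked against known lengths. The setting with the length trend removed used this same constant as the length.

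The test was edgeR 4.0.16 in R 4.3.3 on counts, with TMM scaling, filterByExpr (0 genes removed), the quasi-likelihood test, and p adjusted by Benjamini-Hochberg over 12625 genes at 0.05. The SE is the log2 fold change divided by the square root of F, and intervals use the test's degrees of freedom. DESeq2 1.42.0 and limma 3.58.1 served as alternatives. The edgeR fit and the removal of a trend were tested on simulated data, and the other steps were not. Within groups, the counts of any library pair gave 3.42 to 9.62 chi-square units per gene, above sampling noise, so 6 samples were kept.

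The 10 genes were taken by name. The rule named them all, up to 3 called genes of each other list by smallest p (8 for ER folding genes), or the one with the smallest p, and the 5 profiles nearest to Hspa5, giving 39 genes; 11 more were chosen after their values were seen. Members and lists were chosen with earlier results of these data known. Exon overlaps come from GENCODE M21 (mm10) and promoters from RefSeq (GRCm38.p6). For 99.5% of symbols a transcript gave a GC content.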

Additional observations from a re-analysis of the deposited data

How the results depend on the processing

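The call of Herpud1 held in all 17 alternatives, of which the setting without a filter on low counts repeats the main fit. Total count scaling gave 1070 higher and 626 lower genes of all (63.1% of calls higher, against 41.7% of 676 higher and 947 lower), shifted the median gene by 0.03 (log2) and called 1 ER chaperone gene higher, Hsp90b1; with the GC trend removed 2 were lower, Herpud1 and Dnajb9. Leaving out 1 library gave 373 to 746 higher and 537 to 880 lower genes, the fewest without vehicle replicate 2, and 0 higher and 1 lower of the 10. With the replicate block 730 genes were higher and 1008 lower, and 0 and 1 of the 10. Same-numbered libraries correlated by 0.118, 0.0534 and 0.0178 in their deviations, and differently numbered ones by -0.102 to 0.0505. The labels give only a number, so whether these libraries were paired is not known. Near-zero log2 fold changes changed sign, none with a call in either setting. With the GC trend removed they were -0.014 (Hspa5), -0.039 (Canx), -0.0060 (Pdia4), 0.0035 (Xbp1), -0.0022 (Ercc5), -0.041 (Fxr1), -0.041 (Ktn1) and -0.00084 (Ddit3). With total count scaling Xbp1 was 0.021, and with the length trend removed Ddit3 was -0.015. Leaving out 1 library gave -0.019 to 0.043 for Canx, -0.0046 to 0.033 for Pdia4, -0.036 to 0.015 for Xbp1, -6.2e-05 to 0.011 for Copa, -0.00098 to 0.015 for Ktn1 and -0.029 to 0.075 for Ddit3. Counting error of the lowest count ran from 0.68% for Canx to 2.52% for Dnajb9, and for some of the 10 genes, Herpud1 among them, the spread within a group was no larger than that, so depth limits these comparisons as well as the spread between libraries.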
